A study of Mus musculus with 36 samples.

Results

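The subunits of the transcription factor NF-κB and their inhibitors were followed through the dexamethasone (Dex) response of mouse embryonic fibroblasts (MEFs) with wild-type or mutated glucocorticoid receptor (GR). The group holds 10 genes chosen by name: 6 inhibitors (Nfkbia, Nfkbib, Nfkbie, Nfkbiz, Tnfaip3 and Tnip1) and 4 subunits (Nfkb1, Nfkb2, Rela and Relb), out of 55487 genes in the count table. All 10 were among the 15489 genes that passed the filter on low counts. MEFs are primary cells grown out of mouse embryos, and total RNA was sequenced after 5 h of vehicle or of the synthetic glucocorticoid Dex at 1 μM. The 36 libraries formed 12 groups of 3, each culture of a genotype coming from a different mouse. Run 1 held GRwt/wt, GRD/D, GRD+L/D+L and GRko/ko, and run 2 held GRL/L with its own GRwt/wt cultures. GRD/D carries a point mutation in the DNA-binding domain that weakens dimerization of the receptor. GRL/L carries one in the ligand-binding domain, at a second dimer interface, and GRD+L/D+L carries both. The study reports reduced ligand binding in both GRL/L and GRD+L/D+L. It also reports that GRL/L cells no longer regulated genes at a Dex dose lower than the 1 μM used here. The L and D+L alleles were made by CRISPR/Cas9 in zygotes and backcrossed to FVB/NJ, and the study describes a single founder pup for D+L. GRko/ko cells lack the receptor and served as the negative control. FVB/NJ is the labelled strain throughout, but the methods describe the knockout colony as 129 Sv, so that for GRko/ko genotype and strain cannot be told apart.

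NF-κB is a dimer of Rel-domain proteins that switches on inflammatory and survival genes. In resting cells it is held in the cytoplasm by IκB proteins, which are phosphorylated by the IKK complex and degraded when the cell meets a cytokine or a microbial product. Several inhibitors are themselves NF-κB target genes and form a negative feedback loop, and the induction of IκBα (Nfkbia) by glucocorticoids is a classic proposal for how these hormones dampen NF-κB. The question here was whether Dex raised the inhibitors in each genotype within each run.

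The label of the cells and of the knockout held in the data. All 10 fibroblast markers, such as Col1a1 and Pdgfra, exceeded 1 CPM in each of the 12 groups. Passing 1 CPM alone does not single out fibroblasts, since 14 of 15 macrophage markers passed it in vehicle-treated GRwt/wt of run 1. The summed fibroblast markers lay between 41183.7 and 44386.4 CPM in those libraries and between 47876.5 and 49827.2 in vehicle-treated GRko/ko. Both ranges lay far above the macrophage sums given below. CPM scales counts to library size. It was adjusted by TMM for single genes, while the counts over 1 CPM and the sums of marker lists used unscaled library totals. Nr3c1, the gene of the receptor, lay between 67.2 and 74.3 CPM in the vehicle libraries of GRwt/wt in run 1 and between 15.9 and 18.0 CPM in those of GRko/ko. Tsc22d3, a classic target of the receptor, rose with Dex by 1.84 on the log2 scale in GRwt/wt of run 1 and by 3.56 in run 2, against 0.02 in GRko/ko. The libraries held 15280166 to 28662608 counts. Nfkbie was the member with the fewest reads, with 43 to 257 counts per library, and no other member fell under 129. Markers of macrophages were present in the cultures, and their summed level over 15 genes differed between genotypes more than between treatments. It lay between 214 and 380 CPM in vehicle-treated GRwt/wt of run 1, 765 and 838 in GRD/D, 34.8 and 43.6 in GRD+L/D+L, and 3404 and 3762 in GRko/ko. In the Dex libraries of GRwt/wt in run 1 it lay between 217 and 359. In run 2 it lay, with vehicle, between 579 and 616 in GRwt/wt and between 1055 and 1254 in GRL/L. Among the libraries, Dex replicate 4 of GRwt/wt in run 2 stood apart from its group, with a mean chi-square per gene, which is about 1 for counting noise alone, of 19.6 and 23.4 against replicates 5 and 6, which gave 1.89 between them. In vehicle-treated GRD/D, replicates 2 and 3 gave 30.6 with each other, and 9.36 and 11.1 with replicate 1. Where leaving out 1 of these libraries changed the call of a member, the value without it is also given. The other calls of members stayed the same without it. In bulk RNA, fewer cells of a type and less RNA per cell cannot be told apart.

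To show what the members share in sequence, the 250 bases before each RefSeq transcription start (build GRCm38.p6) were searched on both strands. Windows were listed for 7 of the 10 members and numbered 10 in all, since Nfkb2 has 3 start sites and Tnfaip3 has 2. The NF-κB consensus motif was found in 7 of the 10 windows, whereas 3.9% of all 32851 windows of that length held it. The 7 belong to 5 members, Nfkbia, Nfkbie, Tnfaip3, Tnip1 and Nfkb2. The 5 windows nearest to the annotated gene start are printed 5′ to 3′ on the strand of the gene, with the bases of every match, overlapping matches joined, in capitals.
Nfkbia, IκBα, chr12:55492648-55492897, minus strand: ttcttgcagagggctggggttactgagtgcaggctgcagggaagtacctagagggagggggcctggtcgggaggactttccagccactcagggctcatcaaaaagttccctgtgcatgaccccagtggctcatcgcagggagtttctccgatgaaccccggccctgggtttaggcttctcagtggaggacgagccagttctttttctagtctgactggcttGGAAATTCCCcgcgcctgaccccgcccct
Nfkbie, IκBε, chr17:45555450-45555699, plus strand: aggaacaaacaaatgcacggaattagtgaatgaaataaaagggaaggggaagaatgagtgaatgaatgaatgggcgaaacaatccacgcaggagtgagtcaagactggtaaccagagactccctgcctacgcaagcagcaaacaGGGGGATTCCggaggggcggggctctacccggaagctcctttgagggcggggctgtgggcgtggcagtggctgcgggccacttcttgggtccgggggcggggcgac
Tnfaip3, A20, chr10:19015411-19015660, minus strand: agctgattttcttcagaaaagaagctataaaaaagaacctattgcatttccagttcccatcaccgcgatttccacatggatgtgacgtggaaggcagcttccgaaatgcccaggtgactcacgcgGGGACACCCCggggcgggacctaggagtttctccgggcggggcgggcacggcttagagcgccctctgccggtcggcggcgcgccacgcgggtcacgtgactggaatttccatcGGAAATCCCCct
Tnip1, a partner of A20, chr11:54962941-54963190, minus strand: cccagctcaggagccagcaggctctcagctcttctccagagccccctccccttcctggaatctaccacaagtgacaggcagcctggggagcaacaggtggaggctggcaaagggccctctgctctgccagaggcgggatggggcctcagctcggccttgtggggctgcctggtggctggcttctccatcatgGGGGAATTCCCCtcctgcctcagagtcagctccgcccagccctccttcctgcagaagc
Nfkb2, p100/p52, chr19:46304487-46304736, plus strand: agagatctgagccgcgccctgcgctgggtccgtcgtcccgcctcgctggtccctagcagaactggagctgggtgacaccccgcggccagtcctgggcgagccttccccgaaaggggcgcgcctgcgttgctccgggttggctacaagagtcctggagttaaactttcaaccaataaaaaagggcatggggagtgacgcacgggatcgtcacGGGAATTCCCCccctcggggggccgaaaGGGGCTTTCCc
The match in Nfkbia ended 20 bases before the start site, and the nearest match in Tnfaip3 ended 3 bases before it. The core of the glucocorticoid response element, GNACA, a spacer of 3 free bases, then TGTNC, was in 0 of the 7 members' windows and in 0.387% of all windows. Its half-site AGAACA was in 1 of the 10 windows, the second of Tnfaip3, and in 16.1% of all windows. The inverted repeat associated with repression by the receptor (CTCC, a spacer of up to 2 bases, then GGAGA) was in 0 members and in 1.38% of all windows. The AP-1 motif TGANTCA was in 3 of the 10 windows, 1 each of Tnfaip3, Nfkbie and Nfkb2, and in 6.75% of all windows. Matching letters describe these windows only and do not show binding, and the absence of a match says nothing about sites outside them. The genes lie on 8 different chromosomes of mm10. Nfkbia covers 3238 bases (chr12:55489410-55492647, minus strand), the shortest span of the group, and Nfkb1 covers 106893 bases (chr3:135584655-135691547, minus strand), the longest.

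The members differed widely in level. Compared per kilobase of merged exons in vehicle-treated GRwt/wt of run 1, Rela, which encodes the activating subunit p65, was highest at 29.7 ± 0.88 CPM per kb (SD, n = 3). Nfkb2 followed at 16.2 ± 0.64, and Tnip1, Nfkbia and Nfkbib came next at 12.4, 12.3 and 11.0 CPM per kb with overlapping replicates. Nfkbiz and Nfkb1 lay together at 7.32 and 7.17 CPM per kb. Relb (4.34), Tnfaip3 (2.41) and Nfkbie (1.38 ± 0.29) were lowest. In run 2, Nfkbia at 19.9 ± 1.5 and Rela at 19.1 ± 1.8 CPM per kb shared the top, and Tnfaip3 was last at 1.05 ± 0.092 (the plot of levels per exon length).

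**Figure D1:**
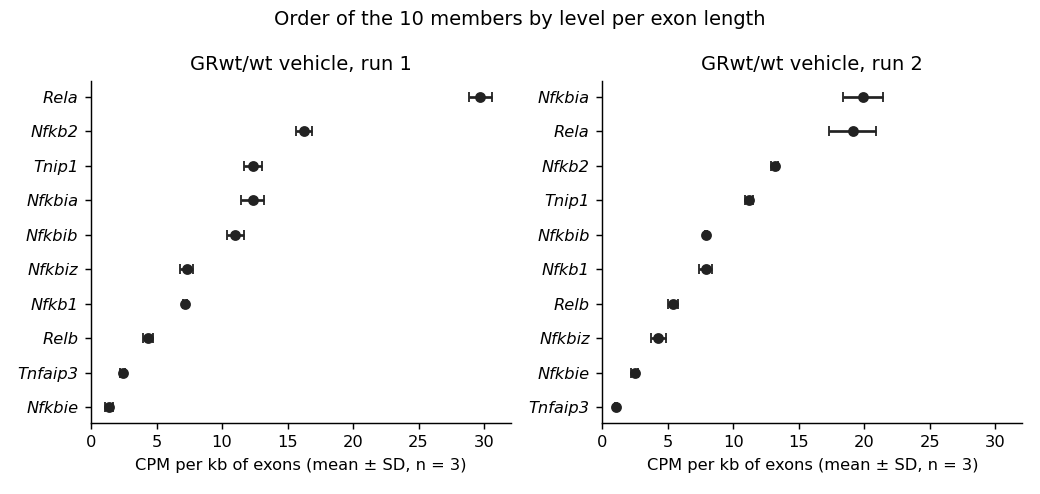
Mean level of each member in vehicle-treated GRwt/wt cells, in CPM per kilobase of exons, for run 1 on the left and run 2 on the right. Points are means of 3 libraries and bars are SDs; Rela led in run 1 at 29.7, and Nfkbia and Rela overlapped at the top in run 2.

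Nfkbia was the inhibitor that rose clearly with Dex in wild-type cells, in both runs, and in GRL/L. It encodes IκBα, which binds p65-containing dimers and carries them out of the nucleus. Its 3 vehicle libraries of GRwt/wt in run 1 held 19.2, 21.5 and 18.8 CPM and its Dex libraries 28.1, 32.3 and 31.7. In run 2 the vehicle libraries held 30.9, 30.5 and 34.8 CPM and the Dex libraries 64.2, 57.4 and 55.6. In GRL/L vehicle gave 32.6, 31.1 and 30.0 CPM and Dex gave 50.4, 56.8 and 54.4. In each of these sets all Dex libraries lay above all vehicle libraries, as did those of 16.5%, 19% and 17.9% of all genes tested. The log2 fold changes were 0.63 ± 0.08 (SE; adjusted p = 2.25e-07), 0.88 ± 0.07 (adjusted p = 1.87e-13) and 0.79 ± 0.07 (adjusted p = 7.95e-12) by the quasi-likelihood test of edgeR, with p-values adjusted over all genes tested (Benjamini-Hochberg). These are increases of 1.55-fold, 1.84-fold and 1.72-fold, under the 2-fold limit of the study in each case.

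In the mutants of run 1 no rise of Nfkbia passed the threshold. GRD/D held 20.4, 22.1 and 18.0 CPM with vehicle and 23.6, 24.6 and 23.1 with Dex. These groups did not overlap, as for 10.4% of all genes in this direction, but the log2 fold change of 0.24 ± 0.08 missed the threshold (adjusted p = 0.0574). It passed when vehicle replicate 2, the highest vehicle library, was left out, at 0.32 (adjusted p = 0.0261). Without vehicle replicate 3, the lowest, the rise still missed the threshold. With DESeq2 in place of edgeR it passed, at 0.24 (adjusted p = 0.0453). GRD+L/D+L held 19.3, 20.9 and 19.8 CPM with vehicle and 19.4, 21.1 and 19.0 with Dex. GRko/ko held 41.6, 35.1 and 37.7 CPM with vehicle and 37.4, 36.1 and 37.7 with Dex. In both the treatments overlapped, and the 95% intervals of the log2 fold change ran from -0.19 to 0.16 and from -0.19 to 0.11.

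**Figure D2:**
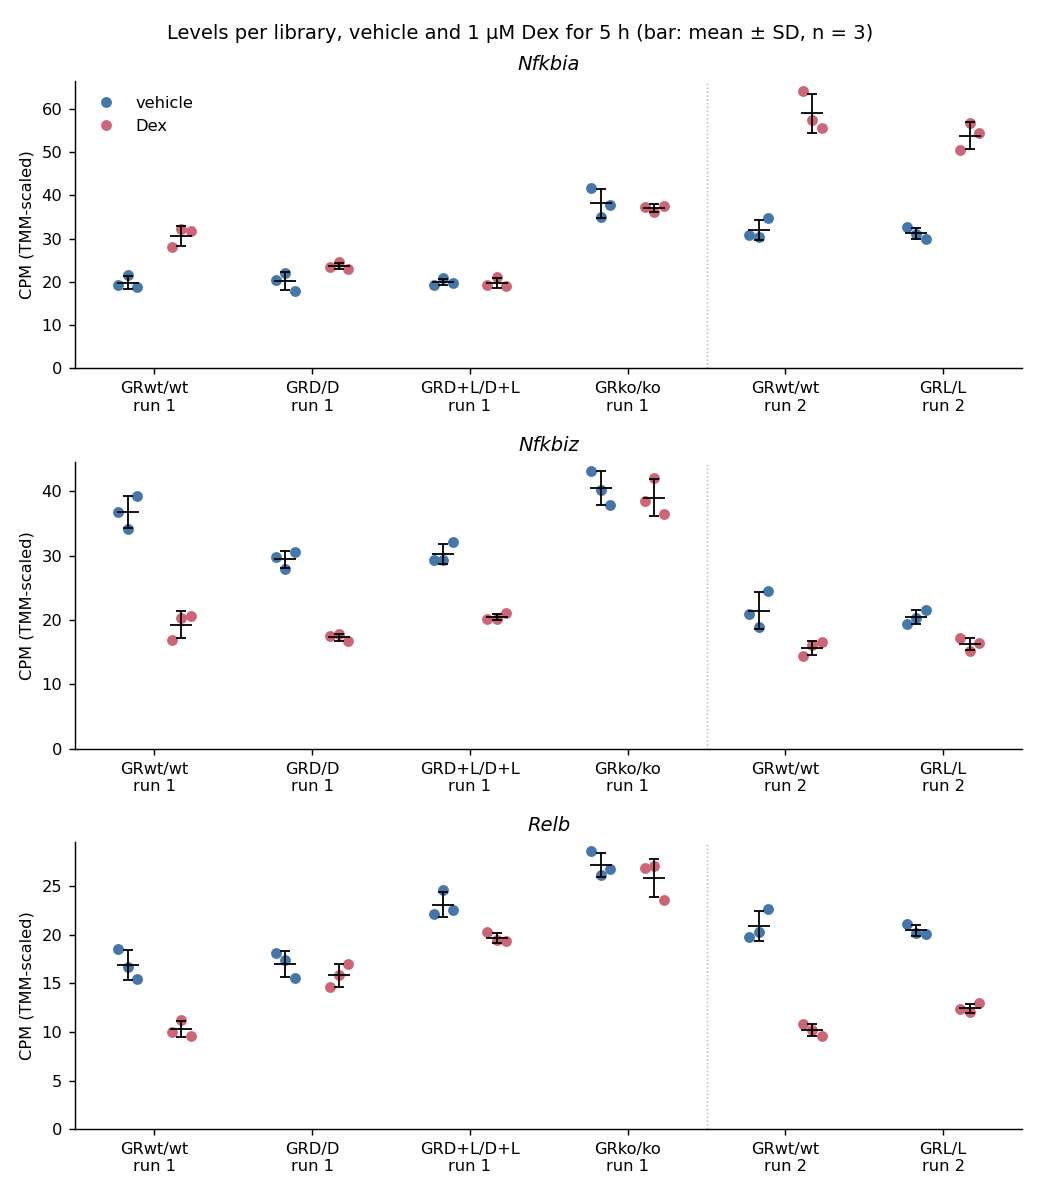
Levels of Nfkbia (top), Nfkbiz (middle) and Relb (bottom) in every library, in CPM on TMM-scaled library sizes, with vehicle in blue and Dex in red for each genotype and run; points are libraries, bars are mean ± SD (n = 3), and the dotted line separates the runs. With Dex Nfkbia moved up in both GRwt/wt sets and GRL/L, Nfkbiz moved down in the 5 sets other than GRko/ko, and Relb moved down in both GRwt/wt sets and GRL/L.

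Nfkbib, which encodes IκBβ, a slower-acting inhibitor, rose slightly in wild-type cells. For the mean of both GRwt/wt runs its log2 fold change was 0.18 ± 0.05 (adjusted p = 0.00665), and it stayed past the threshold without each of the 12 libraries in turn and in 8 of 8 other alternatives apart from the 2-fold limit. It was also called in GRwt/wt of run 2, from 16.97, 17.3 and 17.2 CPM to 23.3, 19.2 and 18.2 CPM. There the log2 fold change of 0.24 ± 0.07 (adjusted p = 0.00723) rested on Dex replicate 4, the highest library, and was 0.13 without it (adjusted p = 0.172). With only the libraries compared in the fit it was 0.25 (adjusted p = 0.071). In the other sets Nfkbib missed the threshold, with log2 fold changes between -0.08 and 0.16. In GRL/L all Dex libraries lay above all vehicle libraries, as for 17.9% of all genes. Its exons share 314 bases with Ccer2 and 42 bases with Sirt2 on the opposite strand, and whether the counting used strand is not given in the sources used here. Ccer2 averaged 0.167 reads per library, and Sirt2 averaged 1895.

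Nfkbie, which encodes IκBε, a feedback inhibitor of p65 and c-Rel dimers, was called lower in the sets in which Nfkbia rose. In GRwt/wt of run 2 it held 7.55, 6.71 and 8.25 CPM with vehicle and 4.91, 4.60 and 4.74 with Dex, a log2 fold change of -0.66 ± 0.11 (adjusted p = 5.32e-06). GRL/L gave 6.76, 8.13 and 6.86 CPM against 5.59, 4.73 and 4.42, a log2 fold change of -0.56 ± 0.10 (adjusted p = 8.67e-05). The groups did not overlap in either set, as for 21.5% and 19.4% of all genes in this direction. In GRwt/wt of run 1 the value was -0.56 ± 0.15 (adjusted p = 0.00981), but the call was lost without Dex replicate 1 (-0.51, adjusted p = 0.0548), Dex replicate 3 (-0.50, adjusted p = 0.0558) or vehicle replicate 3 (-0.38, adjusted p = 0.183). In GRD/D (-0.35), GRD+L/D+L (-0.31) and GRko/ko (-0.21) the change missed the threshold. Every Dex library also lay below every vehicle library in these sets, as for 12.6%, 10.9% and 5.77% of all genes. None of the 3 changes was shown to differ from that of GRwt/wt in run 1. The differences in edgeR were 0.21, 0.25 and 0.35 (adjusted p = 0.818, 0.722 and 0.304).

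Nfkbiz was lowered by Dex in all 5 sets that have a receptor. It encodes IκBζ, a nuclear member of the IκB family that acts as a coactivator of a subset of NF-κB target genes rather than as a cytoplasmic inhibitor. In GRwt/wt of run 1 it went from 36.8, 34.2 and 39.2 CPM with vehicle to 16.8, 20.4 and 20.6 with Dex. GRD/D went from 29.8, 28.0 and 30.5 CPM to 17.6, 17.8 and 16.7. GRD+L/D+L went from 29.3, 29.4 and 32.0 CPM to 20.2, 20.2 and 21.1. In each set all Dex libraries lay below all vehicle libraries, as for 15.4%, 12.6% and 10.9% of all genes. The log2 fold changes were -0.93 ± 0.08 (adjusted p = 4.44e-11), -0.76 ± 0.09 (adjusted p = 3.35e-08) and -0.56 ± 0.09 (adjusted p = 1.32e-05). In run 2 the change was smaller, with -0.45 ± 0.08 in GRwt/wt (adjusted p = 2.77e-05) and -0.33 ± 0.08 in GRL/L (adjusted p = 0.00233). In GRko/ko, vehicle libraries of 43.2, 40.2 and 37.9 CPM overlapped with Dex libraries of 38.4, 42.1 and 36.5 CPM. In GRD+L/D+L Nfkbiz was the only member called, and the call held under each alternative other than the 2-fold limit. When only the libraries compared were fitted, Relb passed there too (-0.23, adjusted p = 0.0272).

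Tnfaip3 encodes A20, a ubiquitin-editing enzyme that shuts off signalling upstream of IKK, and it was called higher in none of the 6 sets. In GRD/D it fell from 16.1, 15.5 and 17.3 CPM with vehicle to 13.2, 11.3 and 10.8 with Dex (log2 fold change -0.47 ± 0.10, adjusted p = 0.00168). The groups did not overlap, as for 12.6% of all genes in this direction. In GRwt/wt of the same run, 17.9, 18.5 and 15.8 CPM with vehicle overlapped with 17.1, 18.9 and 16.4 with Dex, and the 95% interval of the log2 fold change ran from -0.20 to 0.20. It fell in GRwt/wt of run 2 from 7.12, 7.29 and 8.36 CPM to 5.50, 6.80 and 6.17 (-0.30 ± 0.11, adjusted p = 0.034). That call was lost without Dex replicate 4 (-0.23, adjusted p = 0.186), Dex replicate 6 (-0.30, adjusted p = 0.0646) or vehicle replicate 6 (-0.22, adjusted p = 0.175), and with only the libraries compared in the fit (-0.29, adjusted p = 0.0914). GRL/L gave -0.29 ± 0.11 (adjusted p = 0.0615), which passed with only the libraries compared (adjusted p = 0.0425). Tnip1, which encodes a ubiquitin-binding partner of A20, passed the threshold in none of the 6 sets by edgeR or DESeq2, and its unadjusted p-values were all above 0.05. Its level stayed between 37.4 and 53.0 CPM in run 1 and between 35.0 and 42.2 CPM in run 2.

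Among the subunits Relb moved most. RelB partners p52 in the alternative NF-κB pathway, which responds to receptors such as the lymphotoxin β receptor. It fell in GRwt/wt of run 1 from 18.5, 16.6 and 15.4 CPM to 9.99, 11.2 and 9.64. In run 2 it fell from 19.8, 20.2 and 22.6 CPM to 10.9, 10.3 and 9.55. GRL/L went from 21.1, 20.2 and 20.1 CPM to 12.3, 12.1 and 12.97. The treatments did not overlap in these sets, as for 15.4%, 21.5% and 19.4% of all genes in this direction. The log2 fold changes were -0.72 ± 0.09 (adjusted p = 7.64e-08), -1.03 ± 0.07 (adjusted p = 5.97e-14) and -0.72 ± 0.07 (adjusted p = 5.77e-10). The change in run 2 was the only Dex response of a member past the 2-fold limit of the study, which 2.05% of all genes passed downwards in that set. In GRD/D, 18.1, 17.4 and 15.5 CPM with vehicle overlapped with 14.7, 15.9 and 17.01 with Dex (log2 fold change -0.10 ± 0.08, adjusted p = 0.49). In GRD+L/D+L the values of 22.2, 24.6 and 22.5 CPM with vehicle all lay above those of 20.2, 19.5 and 19.3 with Dex, as for 10.9% of all genes. The change of -0.23 ± 0.08 missed the threshold (adjusted p = 0.0816).

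Nfkb2, which encodes p100, the precursor of p52 and itself an inhibitor of RelB, fell less. Wild-type cells of run 2 went from 60.7, 58.9 and 61.4 CPM to 40.5, 41.0 and 44.9 (log2 fold change -0.52 ± 0.06, adjusted p = 2.12e-08). In GRL/L it went from 58.8, 59.4 and 56.7 CPM to 46.2, 41.8 and 43.4 (-0.41 ± 0.06, adjusted p = 3.04e-06). In run 1 GRwt/wt gave -0.20 ± 0.06 (adjusted p = 0.0356), from 77.0, 71.2 and 75.2 CPM to 63.4, 68.0 and 63.8. There the call was lost without Dex replicate 1 (-0.18, adjusted p = 0.129), Dex replicate 3 (-0.18, adjusted p = 0.124), vehicle replicate 1 (-0.17, adjusted p = 0.14) or vehicle replicate 3 (-0.19, adjusted p = 0.0966). It was also lost with a replicate block for the culture (-0.20, adjusted p = 0.0604). Nfkb2 shares exon bases with AC114539.1 (531) and Psd (299) on the opposite strand, which averaged 66.1 and 54.0 reads per library.

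Nfkb1, which encodes p105, the precursor of p50, fell by small amounts. The log2 fold change was -0.21 ± 0.05 in GRwt/wt of run 1 (adjusted p = 0.00419), -0.16 ± 0.05 in run 2 (adjusted p = 0.0114) and -0.19 ± 0.05 in GRL/L (adjusted p = 0.00536). In run 1 the vehicle libraries held 86.6, 84.7 and 88.3 CPM and the Dex libraries 75.8, 73.6 and 74.2, whereas in run 2 the treatments overlapped. The call in run 2 was lost without Dex replicate 4 (-0.10, adjusted p = 0.16), vehicle replicate 4 (-0.14, adjusted p = 0.0641) or vehicle replicate 6 (-0.13, adjusted p = 0.0807), and with only the libraries compared in the fit (-0.15, adjusted p = 0.158). Rela passed the threshold in none of the 6 sets. Its log2 fold change lay between -0.05 and 0.04 in the other 5 sets and was -0.15 ± 0.06 in GRL/L (adjusted p = 0.076), where leaving out Dex replicate 1 gave -0.20 (adjusted p = 0.0388) and fitting only the libraries compared gave -0.15 (adjusted p = 0.0383). In GRD/D, GRD+L/D+L and GRko/ko no subunit passed by edgeR.

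**Figure D3:**
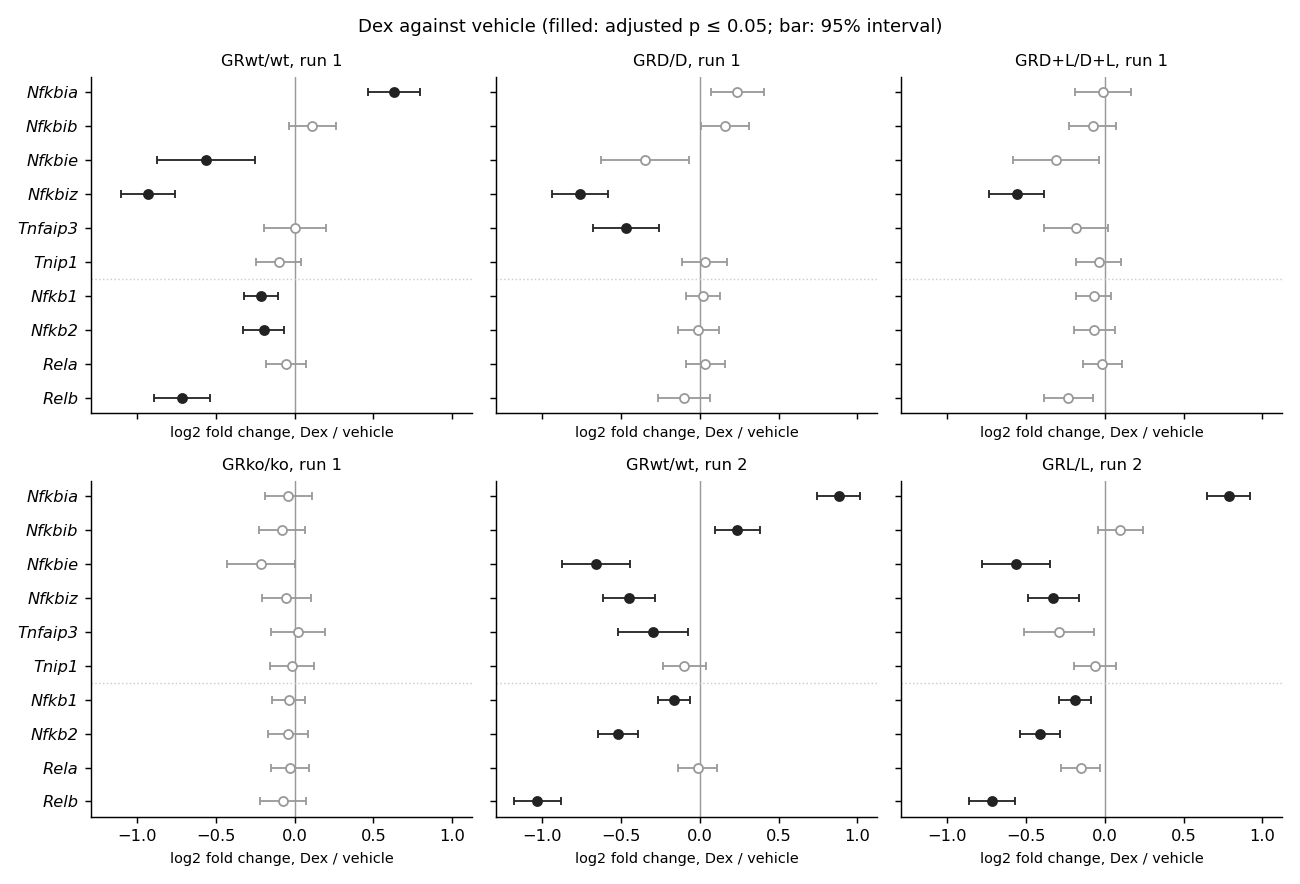
Log2 fold change of each of the 10 members with Dex against vehicle, 1 panel per genotype and run; points are edgeR estimates, bars are 95% intervals, filled points passed an adjusted p of 0.05, and the dotted line separates the 6 inhibitors above from the 4 subunits below. Nfkbia stands to the right of 0 in both GRwt/wt panels and GRL/L, Nfkbiz to the left in all panels but GRko/ko, and the GRko/ko panel has no filled point.

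Counted over the group, 1 member rose and 5 fell in GRwt/wt of run 1, where 7.74% of all genes tested were called higher and 6.2% lower. In run 2, 2 rose and 6 fell, beside 14.9% and 16.7% of all genes. For the mean of both runs, 2 rose (Nfkbia and Nfkbib) and 5 fell, beside 15.7% and 16.8%. In GRL/L, 1 rose and 5 fell, beside 8.79% and 10.4%. In GRD/D, 0 rose and 2 fell, beside 5.63% and 6.24%, and in GRD+L/D+L 0 rose and 1 fell, beside 3.08% and 1.92%. In GRko/ko, 0 members were called by edgeR or by DESeq2 and 0 had an unadjusted p under 0.05. Over all genes edgeR called 0 there, with 859 genes at an unadjusted p under 0.05, and DESeq2 called 1. Of the 6 inhibitors, 1 rose and 2 fell in run 1 of GRwt/wt, 2 rose and 3 fell in run 2, and 1 rose and 2 fell in GRL/L. The median log2 fold change of the 6 inhibitors was -0.05, -0.20 and -0.18 in these 3 sets, beside medians over all genes of -0.0018, -0.011 and -0.0091. The sign depends on the grouping, and the 6 include the coactivator Nfkbiz as well as Tnfaip3 and Tnip1. For the 3 IκB proteins that hold NF-κB (Nfkbia, Nfkbib and Nfkbie) the median was 0.11, 0.24 and 0.10, although Nfkbie fell in each set. Each of these medians is the value of Nfkbib, which of these sets was called only in run 2. For Tnfaip3 and Tnip1 it was -0.05, -0.20 and -0.18. The median of the subunits was -0.21, -0.34 and -0.30. In GRD/D, no inhibitor was called higher by edgeR, 2 had an unadjusted p under 0.05 with a higher level, Nfkbia and Nfkbib, and DESeq2 called 1 of them, Nfkbia. In GRD+L/D+L, 0 inhibitors were higher at an unadjusted p under 0.05.

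Whether a mutant responded differently from wild type was tested as the difference of the log2 fold changes within a run. The contrasts of GRD/D, GRD+L/D+L and GRko/ko share the 6 GRwt/wt libraries of run 1. Nfkbia responded less in GRD+L/D+L, by -0.64 ± 0.12 (adjusted p = 0.000479), and in GRko/ko, by -0.67 ± 0.11 (adjusted p = 2.82e-05). In GRD/D the difference of -0.39 ± 0.12 missed the threshold (adjusted p = 0.0582). It passed without GRD/D vehicle replicate 3 (-0.47, adjusted p = 0.0148), GRwt/wt Dex replicate 1 (-0.45, adjusted p = 0.0289) or GRwt/wt vehicle replicate 2 (-0.45, adjusted p = 0.0378). With all libraries kept, it passed with DESeq2 (-0.39, adjusted p = 0.0433) and with no filter on low counts in edgeR (-0.40, adjusted p = 0.037). In GRL/L it was -0.10 ± 0.09, with a 95% interval from -0.29 to 0.09.

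The fall of Relb was smaller than in wild type in GRD/D (difference 0.62 ± 0.12, adjusted p = 0.000952), in GRD+L/D+L (0.48 ± 0.12, adjusted p = 0.0104) and in GRko/ko (0.64 ± 0.11, adjusted p = 9.72e-05). The call in GRD+L/D+L was lost without GRwt/wt vehicle replicate 1 (0.41, adjusted p = 0.0638) or GRwt/wt Dex replicate 3 (0.44, adjusted p = 0.0537). In GRL/L the difference was 0.31 ± 0.10 (adjusted p = 0.132). The fall of Nfkbiz differed from wild type in GRko/ko (0.88 ± 0.11, adjusted p = 3.42e-07), while the difference was 0.17 ± 0.12 in GRD/D (95% interval -0.07 to 0.42, adjusted p = 0.687) and 0.37 ± 0.12 in GRD+L/D+L (adjusted p = 0.0927). The last passed with only the libraries compared in the fit (0.38, adjusted p = 0.0221). Tnfaip3, which fell in GRD/D but not detectably in its wild-type controls, had a difference of -0.47 ± 0.14 that missed the threshold (adjusted p = 0.0604) and passed without GRD/D Dex replicate 1 (-0.56, adjusted p = 0.0255) and with DESeq2 (-0.47, adjusted p = 0.0494). That of Nfkb1 in GRD/D passed without GRD/D vehicle replicate 3 (0.28, adjusted p = 0.035).

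In all, 1 member differed in its Dex response in GRD/D, 2 in GRD+L/D+L and 3 in GRko/ko, where 3.29%, 3.23% and 8.48% of all genes did. In GRL/L, 0 members were called by edgeR, beside 1.85% of all genes. There 1 member, Relb, had an unadjusted p under 0.05, and DESeq2 called 0. Between GRD+L/D+L and GRD/D 0 members differed by edgeR, beside 0.0775% of all genes, 2 (Nfkbia and Nfkbib) had an unadjusted p under 0.05, and DESeq2 called 0. The runs of GRwt/wt also differed. Nfkbiz fell less in run 2 than in run 1 (difference 0.48 ± 0.12, adjusted p = 0.00571), and Nfkb2 fell more (-0.32 ± 0.09, adjusted p = 0.0203), so 2 members differed beside 7.09% of all genes. The call of Nfkb2 was lost without run 1 vehicle replicate 2 (-0.29, adjusted p = 0.0695), run 1 Dex replicate 2 (-0.29, adjusted p = 0.0744), run 2 Dex replicate 4 (-0.29, adjusted p = 0.056) or run 2 Dex replicate 5 (-0.30, adjusted p = 0.052). The rise of Nfkbia differed between runs by 0.25 ± 0.11 (adjusted p = 0.174).

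**Figure D4:**
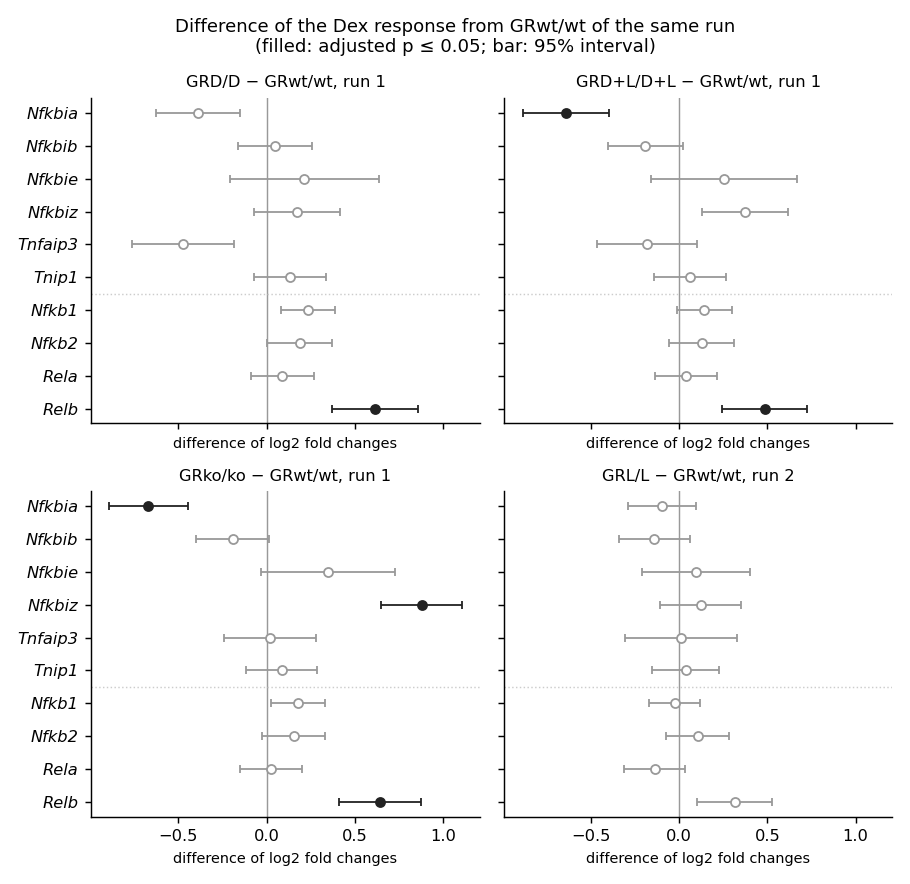
Difference of the Dex log2 fold change of each member between a mutant and GRwt/wt of the same run, with 95% intervals; filled points passed an adjusted p of 0.05 in edgeR. Relb lies above 0 and filled in the 3 mutants of run 1, Nfkbia lies below 0 and filled in GRD+L/D+L and GRko/ko, and GRL/L has no filled point.

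Without Dex, the members stood closest to wild type in GRL/L and furthest in GRko/ko. In GRko/ko 7 members were higher and 0 lower than in GRwt/wt of run 1, where 24.4% of all genes were called higher and 21.3% lower. Nfkbie stood furthest above wild type, from 3.96, 3.49 and 5.19 CPM in wild type to 10.2, 10.5 and 10.1 CPM, a log2 difference of 1.28 ± 0.12 (adjusted p = 3.83e-11). Nfkbia was higher by 0.94 ± 0.08 (adjusted p = 1.64e-12), Tnfaip3 by 0.71 ± 0.09 (adjusted p = 3.74e-08), Relb by 0.69 ± 0.08 (adjusted p = 1.55e-09) and Nfkb2 by 0.36 ± 0.06 (adjusted p = 8.73e-06). For Nfkbia, the vehicle level of GRko/ko, 35.1 to 41.6 CPM, lay above all 6 libraries of GRwt/wt in run 1, Dex included, where the highest held 32.3 CPM. Nfkbib (0.20 ± 0.07, adjusted p = 0.0208) and Nfkb1 (0.16 ± 0.05, adjusted p = 0.0108) also passed. Nfkbib was lost without GRko/ko vehicle replicate 1 (0.18, adjusted p = 0.0779), GRwt/wt vehicle replicate 1 (0.16, adjusted p = 0.121) or GRwt/wt vehicle replicate 3 (0.20, adjusted p = 0.0573). Nfkb1 was lost without GRko/ko vehicle replicate 1 (0.12, adjusted p = 0.106) or GRwt/wt vehicle replicate 2 (0.14, adjusted p = 0.0558). The macrophage markers given above were also higher in GRko/ko, with 15 of 15 above 1 CPM against 14 in GRwt/wt of run 1 and none at 0, and the summed cartilage and bone markers lay between 178 and 566 CPM against 18.7 to 20.4. The skeletal muscle markers were higher too, 5 of 5 tested, with a median log2 difference of 4.50 and sums between 72.6 and 75.6 CPM against 22.1 to 27.8. The part of these markers in the result was not tested.

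In the other mutants few members differed with vehicle. In GRD+L/D+L, 2 were higher and 1 lower, beside 13.9% and 15.9% of all genes. Relb was higher, at 22.2, 24.6 and 22.5 CPM against 18.5, 16.6 and 15.4 in wild type (0.45 ± 0.08, adjusted p = 2.34e-05), and so was Nfkbie (0.42 ± 0.14, adjusted p = 0.017). Nfkbiz was lower (-0.28 ± 0.08, adjusted p = 0.00617). The call of Nfkbie was lost without GRD+L/D+L vehicle replicate 1 (0.38, adjusted p = 0.0651), GRwt/wt vehicle replicate 1 (0.37, adjusted p = 0.0724) or GRwt/wt vehicle replicate 2 (0.30, adjusted p = 0.135). Only 6 of the 15 macrophage markers exceeded 1 CPM in these GRD+L/D+L libraries, with none at 0 in all of them. The summed muscle markers lay between 119 and 134 CPM, with 1 of 5 tested called higher, and 6 of 10 fibroblast markers were lower, 3 of them past 2-fold. The part of these markers was not tested. With only the libraries compared in the fit, Tnip1 (0.16, adjusted p = 0.036) and Rela (0.13, adjusted p = 0.0339) were higher in GRD+L/D+L as well. In GRD/D, 0 were higher and 1 lower, beside 5.66% and 3.89%. This was Nfkbiz, at 29.8, 28.0 and 30.5 CPM against 36.8, 34.2 and 39.2 (-0.32 ± 0.08, adjusted p = 0.0055), and it was lost without GRwt/wt vehicle replicate 3 (-0.27, adjusted p = 0.0597). In GRL/L, 0 members differed by edgeR or DESeq2 and 0 had an unadjusted p under 0.05, beside 11.3% of all genes called, and every member's log2 difference lay between -0.07 and 0.06.

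**Figure D5:**
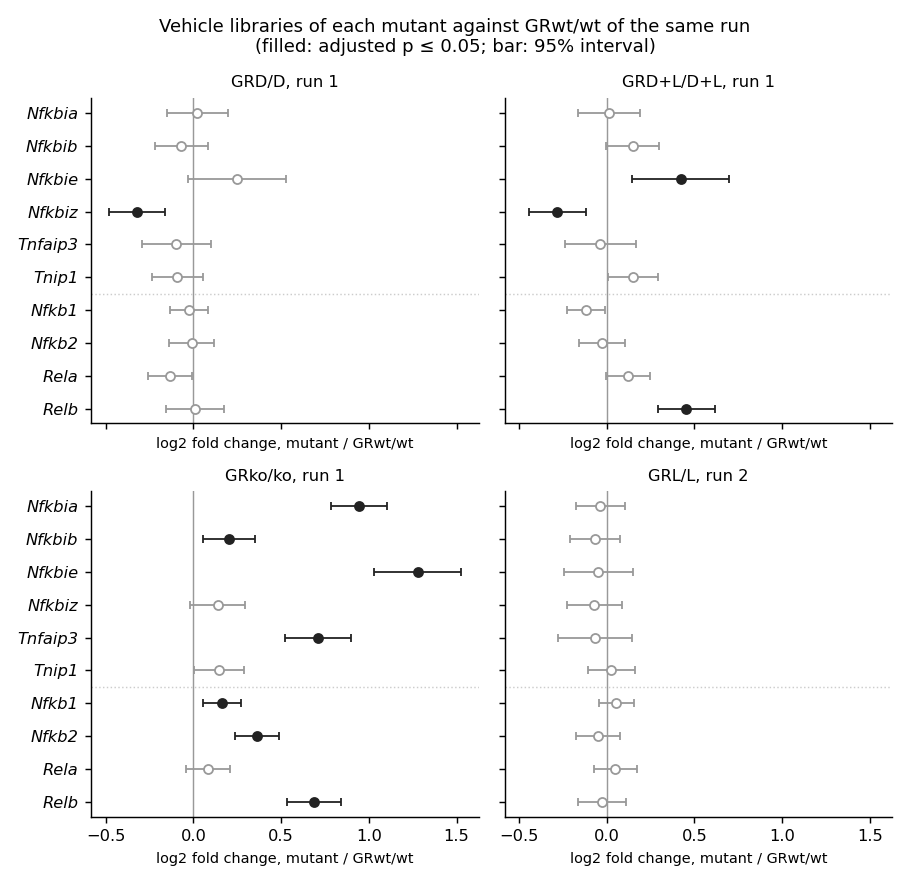
Log2 fold change of each member between vehicle-treated mutant and GRwt/wt libraries of the same run, with 95% intervals; filled points passed an adjusted p of 0.05 in edgeR. In the GRko/ko panel 7 points are filled and all lie to the right of 0, up to 1.28 for Nfkbie, whereas the GRL/L panel has none.

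The rest of the pathway was read from 5 lists, whose counts stand beside the shares of all genes called higher and lower: 7.74% and 6.2% in GRwt/wt of run 1, 14.9% and 16.7% in run 2, 8.79% and 10.4% in GRL/L, 5.63% and 6.24% in GRD/D, and 3.08% and 1.92% in GRD+L/D+L. Of 31 NF-κB target genes 28 were tested, and in GRwt/wt 1 rose and 9 fell in run 1, 1 rose and 20 fell in run 2, and in GRL/L 1 rose and 17 fell. In GRD/D and in GRD+L/D+L 0 rose and 8 fell, and in GRko/ko 0 were called by edgeR. Their median log2 fold change was -0.33 and -1.12 in GRwt/wt of runs 1 and 2, -0.72 in GRL/L, -0.05 in GRD/D, -0.08 in GRD+L/D+L and -0.01 in GRko/ko. Ptgs2, the inducible cyclooxygenase, fell by 1.12 on the log2 scale in run 1 and by 2.21 in run 2 of GRwt/wt, and fell by 0.93 in GRD/D and by 0.55 in GRD+L/D+L. Ccl2, a monocyte chemokine, fell by 1.14 and 2.59 in GRwt/wt, by 0.34 in GRD/D (adjusted p = 0.0345) and missed the threshold in GRD+L/D+L (-0.36, adjusted p = 0.0674). Vcam1, an adhesion molecule, fell by 0.80 and 0.94 in GRwt/wt and by 0.46 in GRD+L/D+L. Plau, the urokinase protease, fell by 0.95 and 0.70, and by 0.66 in GRD+L/D+L.

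Other brakes on the pathway numbered 16 and went both ways. In GRwt/wt 3 rose and 0 fell in run 1, 7 rose and 6 fell in run 2, and in GRL/L 4 rose and 5 fell, with medians between 0.01 and 0.04. In GRD/D 0 rose and 2 fell, and in GRD+L/D+L and GRko/ko 0 were called. Irak3, the inhibitory kinase-like protein IRAK-M, rose by 0.84 and 0.43 on the log2 scale in runs 1 and 2 of GRwt/wt. N4bp1 rose by 0.15 and 0.38, and Pdlim2, which promotes degradation of nuclear p65, gave 0.22 in run 1 (adjusted p = 0.0619) and rose by 0.60 in run 2. Traf3, which restrains the alternative pathway, gave -0.15 in run 1 (adjusted p = 0.13) and fell by 0.44 in run 2.

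The IKK list held 17 genes: IKK components and kinases, adaptors and ubiquitin enzymes that act with them. In GRwt/wt 1 rose and 2 fell in run 1, and 2 rose and 5 fell in run 2. In GRL/L 2 rose and 2 fell, in GRD/D 0 rose and 3 fell, in GRD+L/D+L 0 rose and 1 fell, and 0 were called in GRko/ko. Map3k8, the kinase TPL2, which is held by p105, rose by 0.69 and 0.62 in GRwt/wt and by 0.74 in GRL/L. Map3k7, the kinase TAK1, fell by 0.12 and 0.24 in GRwt/wt. Map3k14, the kinase NIK of the alternative pathway, gave -0.13 in run 1 (adjusted p = 0.424) and fell by 0.37 in run 2, and Birc3, a ubiquitin ligase, fell by 0.34 in run 1 and gave -0.14 in run 2 (adjusted p = 0.102). Of 22 receptors and adaptors, 1 rose and 2 fell in run 1, 0 rose and 9 fell in run 2, 1 rose and 8 fell in GRL/L, 3 rose and 4 fell in GRD/D, 1 rose and 1 fell in GRD+L/D+L, and 0 were called in GRko/ko. Ripk2, the kinase downstream of NOD receptors, fell by 0.60 and 0.62 in GRwt/wt, by 0.69 in GRD/D and by 0.58 in GRD+L/D+L. Irak2 fell by 0.26 and 0.53 in GRwt/wt. Tlr2 and Cd40 gave -0.39 and -0.36 in run 1 (adjusted p = 0.088 and 0.0973) and fell by 0.87 and 1.01 in run 2. Among 4 further Rel and IκB family members, Rel, the subunit c-Rel, gave -0.31 in run 1 (adjusted p = 0.113) and fell by 0.51 in run 2, and Bcl3, a nuclear IκB, fell by 0.84 and 0.44. In that list 0 rose and 1 fell in run 1, 0 rose and 3 fell in run 2, 0 rose and 2 fell in GRL/L, 0 rose and 1 fell in GRD/D, and 0 were called in GRD+L/D+L and GRko/ko. In run 1 of GRwt/wt the shares called lay near those of all genes. They were 5.88% higher and 11.8% lower of the IKK list, and 4.55% and 9.09% of the receptors and adaptors. In run 2 they were 11.8% and 29.4% of the IKK list, and 0% and 40.9% of the receptors and adaptors, beside 14.9% and 16.7%. In GRL/L they were 11.8% and 11.8%, and 4.55% and 36.4%, beside 8.79% and 10.4%.

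The genes whose pattern was most like that of Nfkbia were sought among 11781 genes averaging 50 reads or more per library, by Pearson's r of log2 CPM over the 36 libraries after the mean of each run was subtracted. The 5 highest were Glul (glutamine synthetase, r = 0.962), Cavin3 (a caveolar coat protein, 0.947), Sesn1 (sestrin 1, 0.919), Dcbld2 (0.910) and Il6ra (the interleukin 6 receptor α chain, 0.903). The libraries share genotypes and treatments, so r describes a common pattern over groups and is given with no p. Among the members themselves the highest r was that of Nfkbib at 0.629, followed by Tnfaip3 at 0.431, and that of Relb was -0.18.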

How the data were processed

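Members and lists were chosen with earlier results of these data known. Total RNA was sequenced from TruSeq libraries on a NextSeq. Per the labels and the methods, the authors mapped the reads to mm10 with HISAT2 2.1.0, kept those that mapped uniquely and assigned them to genes by featureCounts 2.0.0 (versions from the submitters' processing notes); annotation and strand setting are not given in the sources used here. The deposited values are raw counts, whole numbers with no normalization, 1 column per library, with 15280166 to 28662608 counts each. Depth limits Nfkbie most.

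The deposited counts were tested with edgeR 4.0.16 (limma 3.58.1, R 4.3.3): TMM scaling, filterByExpr, 1 term for each of the 12 groups (genotype by run by treatment) and quasi-likelihood F tests, with Benjamini-Hochberg adjustment over 15489 genes and calls at an adjusted p of at most 0.05. The study's formula, a run term plus condition, was an alternative. SEs were taken as |log2 fold change|/√F and are approximate. The calls past the study's limit of 1 on the log2 scale are given beside them. The scripts were tested on simulated data. Symbols were matched to 55141 of 55487 identifiers, and positions and exon lengths come from GENCODE annotation of GRCm38, the build of mm10. Each culture came from a different mouse. Named genes are the 10 members, Nr3c1 and Tsc22d3 as checks, up to 4 genes of each of 5 pathway lists with the smallest adjusted p in the mean of the GRwt/wt runs, and the 5 genes most like Nfkbia. Replicate numbers recur across treatments. Same-numbered libraries deviated from their group means with r over 0.1 in 1 of 18 pairs, and 9 of 18 correlated best with their own number. With 3 libraries per group these values cannot settle whether libraries are paired. No pairing was assumed in the main fit. The study describes vehicle or Dex given to 3 cultures per genotype, but not which numbers share a culture. No 2 libraries of a group differed by as little as counting noise. Alternatives were DESeq2 1.42.0, its size factors, 2 other filters, other models and sample sets, a replicate block, a fold limit and leaving out each library.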

Additional observations from a re-analysis of the deposited data

Results flagged for a closer look

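The Dex response of 4 members differed between genotypes or runs in edgeR's interaction test, which is what marked them here. Relb fell less than in GRwt/wt of run 1 in GRD/D (difference of log2 fold changes 0.62, adjusted p = 0.000952), in GRD+L/D+L (0.48, adjusted p = 0.0104) and in GRko/ko (0.64, adjusted p = 9.72e-05). The rise of Nfkbia was smaller in GRD+L/D+L (-0.64, adjusted p = 0.000479) and in GRko/ko (-0.67, adjusted p = 2.82e-05). The fall of Nfkbiz was smaller in GRko/ko (0.88, adjusted p = 3.42e-07). These contrasts share the wild-type libraries of run 1. Between the runs of GRwt/wt, the fall of Nfkbiz was smaller in run 2 (0.48, adjusted p = 0.00571) and that of Nfkb2 larger (-0.32, adjusted p = 0.0203). Dixon's test of an outlying library was not run on these groups of 3 libraries.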

How the results depend on the processing

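Of 170 member values with a test, 49 were called, and 38 of these kept call and direction in each alternative run other than the fold limit. No called value changed sign. With the fold limit as well, the counts of members raised by Dex in GRwt/wt (runs 1, 2 and their mean) and GRL/L became 0, those lowered became 0 in GRwt/wt of run 1, the mean, GRL/L, GRD/D and GRD+L/D+L and 1 in GRwt/wt of run 2, those whose response differed became 0 in GRD/D, GRD+L/D+L, GRko/ko and between the runs, and those that differed with vehicle became 0 in GRD/D and GRD+L/D+L and 1 in GRko/ko. With only the libraries compared, 1 member was raised in GRwt/wt of run 2, 4 against 6 were lowered there (Tnfaip3 and Nfkb1 lost), 7 against 5 in GRL/L (Tnfaip3 and Rela gained) and 2 against 1 in GRD+L/D+L, where 3 responses differed and 5 members differed with vehicle. In GRD/D, 1 member, Nfkbia, was raised with DESeq2 (adjusted p = 0.0453), with its size factors (0.0493) and with at least 10 counts in every library (0.0425). The members whose response differed there numbered 3 with DESeq2 and with no filter and 2 without the GRko/ko libraries. Leaving out 1 library gave ranges of 3 to 5 lowered in GRwt/wt of run 1, 1 to 2 raised in run 2, 0 to 1 raised in GRD/D, differing responses of 1 to 3 in GRD/D, 1 to 2 in GRD+L/D+L and 1 to 2 between the runs, and 0 to 1 with vehicle in GRD/D. The libraries are named beside each result in the report, and the cause was not tested. With a replicate block for the culture, as if the numbers paired the libraries, 9 of 18 pairs correlated best with their own number, and the call of Nfkb2 in GRwt/wt of run 1 was lost (-0.20, adjusted p = 0.0604). The block left 2021 genes called in GRwt/wt of run 1 against 2159, and changed no other call of a member. Between GRD+L/D+L and GRD/D it left 2 genes called against 12, and DESeq2 called 58 there. No filter on low counts ended the calls of Nfkb2 in GRwt/wt of run 1 (adjusted p = 0.0535), of Nfkbib in GRko/ko with vehicle (0.0719) and of Nfkbie in GRD+L/D+L with vehicle (0.058), with 32584 genes tested. By Spearman's rho, 3 of the 5 genes most like Nfkbia stayed the same. Without TMM, 59 of 120 group levels moved by more than 1 SD. Depth limited Nfkbie most, with 43 counts in its lowest library.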
